A study of Mus musculus with 3 samples.

Results

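The MYC network is a family of basic helix-loop-helix leucine zipper transcription factors, and its 10 genes Myc, Mycn, Max, Mxd1, Mxi1, Mxd3, Mxd4, Mnt, Mga and Mlx are described here in mouse T-helper 1 (Th1) cells. They were taken by name, by matching the gene identifiers of the deposited tables to GENCODE symbols, and all 10 were found among the 50600 annotated genes. RNA was sequenced from primary Th1 cells of C57BL/6NJ mice in 3 libraries of 1 group, numbered as biological replicates 1, 2 and 3, with no other cell type or treatment labelled; sex, age and developmental stage are not given. Each library has its own biosample entry, but all carry 1 donor entry, and the labels do not say whether the animals or cultures were separate. The p-values therefore speak of the scatter among these 3 samples alone, and that scatter may be technical. The file headers carry 24 hr. The labels name the assay as total RNA sequencing and link a protocol for polyA-selected RNA.

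Total counts of read pairs ranged from 2945353 to 3553547 per library. All 10 T cell markers examined (Cd3e, Cd3d, Cd3g, Cd4, Cd5, Trac, Trbc2, Cd28, Lck and Zap70) were detected, with a median of 83.8 ± 22 TPM (TPM are counts divided by exon length and scaled to a fixed library total; SD, n = 3). Of 6 Th1 markers 3 were detected: Il12rb2 at 14.8 ± 2.01 TPM, which shares exon bases with Serbp1, Stat4 at 5.01 ± 1.87 and Tbx21 at 2.47 ± 0.727. Tbx21 had only 8 to 15 counts, and Ifng, which was not detected, had 1 or 2. Of 2 CD8 T cell markers Cd8b1 was detected (10.4 ± 2.64 TPM), and Cd8a had 1 count in every library. Of 6 B cell markers Cd79a alone was detected (7.34 ± 0.653 TPM), with Ms4a1 and Ebf1 at 0 counts. Macrophage and monocyte markers summed to 163 to 169 TPM, nearly all of it Csf1r, which shares exon bases with Hmgxb3. Cd68 was the other detected of the 6, at 9.21, 2.73 and 2.98 TPM in replicates 1, 2 and 3, and Lyz2, Itgam and Cd14 were at 0. Counts were taken on the annotated strand of each gene. The sources used here do not give the strand that the library marks. If the counting option was set against it, a gene with no opposite-strand neighbour would hold only a residue of its own mRNA. Every level below is therefore a level of counts on the annotated strand, and low values do not show that an mRNA was absent. In bulk RNA, fewer cells that express a gene and less RNA per cell cannot be told apart.

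MYC and its paralogue MYCN activate transcription as dimers with MAX, which bind the E-box CACGTG. MXD1, MXI1, MXD3, MXD4 and MNT also pair with MAX at the same element but repress, through the SIN3 and histone deacetylase corepressor, so that activators and repressors share 1 partner. MGA carries a T-box beside its helix-loop-helix domain and joins a polycomb complex, and MLX is the MAX-like partner of MXD1, MXD4, MNT and the glucose-responsive MONDO factors. In T cells MYC is known as the factor that drives growth and metabolic change after activation.

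The promoters of several network genes hold the element that the network's own proteins bind, and they are shown for that reason. RefSeq promoter windows (GRCm38.p6, the same build as mm10), each from 250 bases before to 50 after a start site, matched 9 of the 10 genes in 11 windows; Myc had no entry. CACGTG, which reads the same on both strands, was found in the windows of 4 of the 9 genes (44.4%), against 8.09% of the 27025 genes with a window and 12.1% of 7139 protein-coding genes detected in these libraries. The stretches around it are given 5′ to 3′ on the gene's strand, with CACGTG in capitals.

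Max, chr12:76962199-76962311, minus strand: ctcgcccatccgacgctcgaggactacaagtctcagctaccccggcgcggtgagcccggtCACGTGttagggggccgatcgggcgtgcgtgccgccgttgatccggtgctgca

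Mnt, chr11:74830741-74830866, plus strand: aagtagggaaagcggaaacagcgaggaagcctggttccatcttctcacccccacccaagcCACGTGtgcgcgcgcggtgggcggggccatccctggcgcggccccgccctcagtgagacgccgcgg

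Mlx, chr11:101087190-101087315, plus strand: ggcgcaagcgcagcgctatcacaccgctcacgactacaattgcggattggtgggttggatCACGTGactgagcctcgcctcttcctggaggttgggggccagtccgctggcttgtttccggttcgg

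Mxd4, chr5:34187864-34187960, minus strand: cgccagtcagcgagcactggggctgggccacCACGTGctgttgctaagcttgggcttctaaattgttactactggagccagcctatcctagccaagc

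The first base of the E-box lay at -3 relative to the RefSeq start site in Max, at -40 in Mlx, at -123 in Mnt and at -219 in Mxd4. The windows of Mycn, Mxd1, Mxd3 and Mga and the 3 of Mxi1 held no CACGTG. The related element CACGCG, searched on both strands, was found in Mga alone among the 9 genes, against 10.5% of all genes with a window and 21.1% of detected protein-coding genes. The 4 genes with CACGTG had mean levels of 45.4 TPM (Mlx), 26.0 TPM (Max), 4 TPM (Mnt) and 0.232 TPM (Mxd4). Those with a window and no CACGTG were Mxd3 at 315 TPM, Mga at 7.69, Mxi1 at 1.02, Mxd1 at 0.717 and Mycn at 0. These matches describe the letters of the windows and show no binding.

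Of the activators, Myc was abundant and Mycn was not counted. Myc (ENSMUSG00000022346, chromosome 15, 61985391 to 61990374, plus strand, 2717 exon bases) had 637, 344 and 567 counts in replicates 1, 2 and 3, or 123, 72.4 and 112 TPM (102 ± 26.7, SD, n = 3), and 659 of 21764 protein-coding genes had a higher mean TPM. Mycn (ENSMUSG00000037169, chromosome 12, 12936096 to 12941914) had 0 counts in every library. At this depth 0 counts leave room for up to 3, or 0.479, 0.521 and 0.488 TPM of Mycn in the 3 libraries, and this limit covers counting error only. Next to Myc, the long noncoding RNA gene Pvt1 on the same strand, 47612 bases away, had 30, 7 and 25 counts (1.58 ± 0.89 TPM), and its exons share bases with the opposite-strand gene H2afy3. By TPM, replicate 2 was the lowest of the 3 libraries for both Myc and Pvt1, as for 77.9% of the detected protein-coding genes.

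By profile over the 3 libraries, the genes closest to Myc among 6846 protein-coding genes with an opposite-strand gene nearby but no shared exon bases were Hcls1, Tcf7 and Eif3l. Their Euclidean distances in log2(TPM + 1) were 0.0762, 0.11 and 0.122, and 49 such genes lay within 0.5. Tcf7, a transcription factor gene of naive T cells, stood at 124, 78.2 and 112 TPM. With 3 libraries of 1 group, the distance depends on the level as well as on the pattern.

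Both common partners were detected. Max (ENSMUSG00000059436, chromosome 12, 76937269 to 76962201, minus strand), the obligate partner of MYC and the repressors, had 248, 112 and 160 counts, or 36.3, 17.8 and 23.8 TPM (26.0 ± 9.42, SD, n = 3). Replicate 1 stood above the other two. Mlx (ENSMUSG00000017801, chromosome 11, 101087277 to 101092207, plus strand) had 182, 149 and 171 counts, or 47.9, 42.6 and 45.8 TPM (45.4 ± 2.65), the narrowest relative spread among the 6 detected members, but its exons share bases with Psmc3ip.

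The repressor genes split widely in level. Mxd3 (ENSMUSG00000021485, chromosome 13, 55325168 to 55329758, minus strand), a gene known for S phase expression, had the highest counts of the network, at 1063, 1229 and 1312, or 269, 338 and 337 TPM (315 ± 39.7, SD, n = 3), and its last exon shares bases with Prelid1. It held 62.7% ± 8 of the summed TPM of the 10 genes. Mnt (ENSMUSG00000000282, chromosome 11, 74830920 to 74845725), the broadly expressed MAX-binding repressor, had 44, 23 and 36 counts (4 ± 1.09 TPM). Mxi1 had 13, 7 and 12 counts (1.02 ± 0.272 TPM, chromosome 19, 53310506 to 53375810), Mxd1 had 12, 9 and 7 (0.717 ± 0.182 TPM, chromosome 6, 86647042 to 86669161) and Mxd4 had 7, 2 and 2 (0.232 ± 0.175 TPM, chromosome 5, 34173883 to 34187720). Apart from Mxd3, no repressor gene of the network reached 6 TPM in any library.

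Mga (ENSMUSG00000033943, chromosome 2, 119897228 to 119969581, plus strand, 15340 exon bases) had 296, 134 and 227 counts. Per length this was 10.2, 5 and 7.92 TPM (7.69 ± 2.59, SD, n = 3). By CPM, which scales counts to a fixed library total without length, Mga stood above Max and Mlx, and per length it stood below both.

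In all, 6 of the 10 genes were detected, meaning 1 TPM or more in every library, against 41.2% of protein-coding genes. Their median level was 5.85 ± 1.84 TPM over the 10 genes, against 0.386 ± 0.0703 over all protein-coding genes (SD, n = 3 each). The 4 genes not detected were Mxi1, Mxd1, Mxd4 and Mycn.

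**Figure D1:**
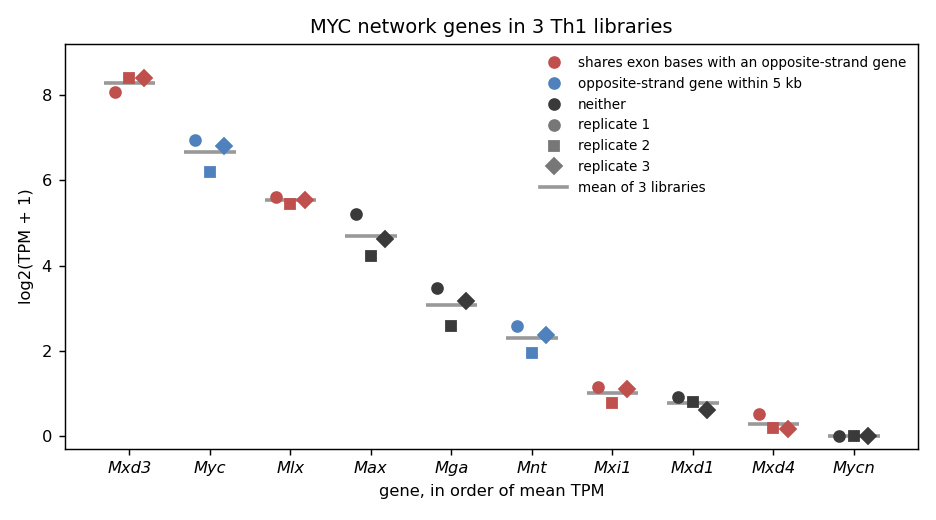
Level of each of the 10 genes as log2(TPM + 1) in each of the 3 libraries (circle, square and diamond for replicates 1, 2 and 3), with the grey bar at the mean of the 3 log2 values and colour for the position of opposite-strand genes. Mxd3 is highest, Myc next, and Mxi1, Mxd1, Mxd4 and Mycn lie near 0.

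Neighbours in this order kept their order in all 3 libraries, with 1 exception. Of 9 neighbouring pairs, 8 had the same sign of the difference in log2(TPM + 1) in every library. Mxi1 and Mxd1 did not, with 0.23 ± 0.25 (SD, n = 3) and a sign that turned in replicate 2, so these 2 genes did not differ beyond their spread. The smallest of the other steps were Mxd4 over Mycn at 0.29 ± 0.2, on 2 to 7 counts of Mxd4, and Mxd1 over Mxd4 at 0.48 ± 0.11. Mlx stood above Max by 0.84 ± 0.42, with 0.39 in replicate 1 and 1.21 in replicate 2. The smallest p that an exact two-sided sign-flip test can give with 3 libraries is 0.25, and the steps are given untested.

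Within libraries, Myc exceeded its partner gene Max in TPM on the annotated strand. The log2 ratio of Myc to Max was 1.74, 1.97 and 2.18 in replicates 1, 2 and 3 (1.96 ± 0.22, SD, n = 3), above 0 in 3 of 3. Against the summed TPM of Mxd1, Mxi1, Mxd3, Mxd4 and Mnt, which was 321 ± 38.4, the log2 ratio of Myc was -1.16, -2.22 and -1.61 (-1.66 ± 0.54), below 0 in 3 of 3. That direction rested on Mxd3. Against Mxd1 and Mnt, the repressor genes with no shared exon bases, the log2 ratio was 4.16 ± 0.15, with the repressor sum at 4.72 ± 1.16 TPM.

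The 4 members that share exon bases with a gene on the opposite strand do so in their last exon. Mxd3 and Prelid1, which encodes a lipid carrier of the mitochondrial intermembrane space, run tail to tail and share 104 bases (chromosome 13, 55325168 to 55325271), the last 5% of the Mxd3 exon length, untranslated in both genes by GENCODE M21. Mlx and Psmc3ip, a meiotic recombination cofactor gene, also run tail to tail and share 385 untranslated bases (chromosome 11, 101091823 to 101092207), 19.3% of Mlx. The antisense gene Gm42846 lies with all its 514 exon bases inside the last exon of Mxd4. Of the 201 bases of Gm10197, which the annotation calls protein-coding, 194 lie in exon bases of Mxi1, 161 of them coding in Mxi1.

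**Figure D2:**
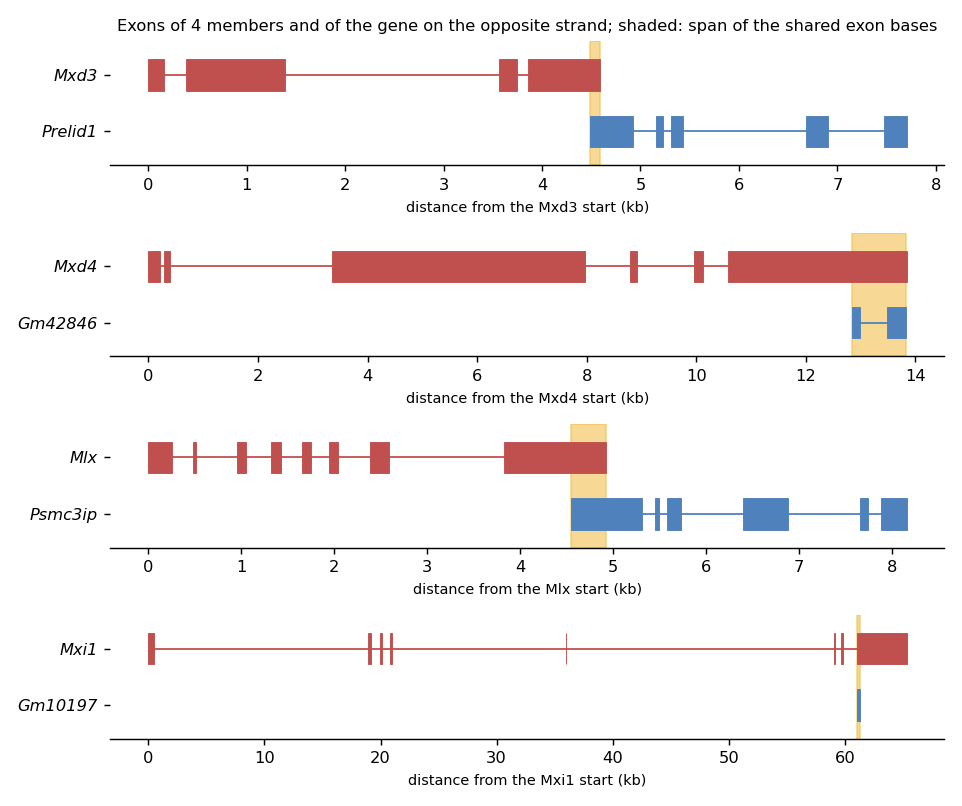
Exons (boxes) and introns (lines) of Mxd3, Mxd4, Mlx and Mxi1 (red, upper row) and of the opposite-strand gene (blue, lower row), by distance in kb from the start of the member, with the span of the shared exon bases shaded. The shared spans lie at the end of Mxd3, Mxd4 and Mlx and in the last exon of Mxi1.

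The counts of these pairs were unevenly divided. Mxd3 had more counts than Prelid1 in every library (1063, 1229 and 1312, against 411, 262 and 339), and the log2 ratio of counts was 1.85 ± 0.44 (SD, n = 3). Mlx had fewer than Psmc3ip (182, 149 and 171, against 764, 832 and 792; log2 ratio -2.25 ± 0.21). Across libraries, the counts of the first pair ran in opposite order at 1 end: Mxd3 was lowest and Prelid1 highest in replicate 1. In the second pair, Mlx was lowest and Psmc3ip highest in replicate 2, the library with the fewest total counts. By CPM, Mlx was nearly level, at 51.2, 50.6 and 50.7 in replicates 1, 2 and 3.

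The 2 genes nested in a member had far more counts per length than that member. Per kb of exon, Mxd4 had 0.825, 0.236 and 0.236 counts, against 148, 103 and 99.2 for Gm42846. Mxi1 had 2.31, 1.25 and 2.14 counts per kb, against 726, 642 and 577 for Gm10197. As counts, Gm42846 had 76, 53 and 51, and Gm10197 had 146, 129 and 116. This arrangement was common: a gene not annotated as protein-coding lay with at least 90% of its exon length inside the exons of a longer opposite-strand protein-coding gene in 235 pairs with 10 or more counts. In 185 of them (78.7%) the inner gene had more counts per kb in all 3 libraries. Which gene of a pair gave the read pairs cannot be told apart from gene counts. The high level of Mxd3, the level of Mlx and the low levels of Mxd4 and Mxi1 therefore cannot be assigned to those genes alone.

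**Figure D3:**
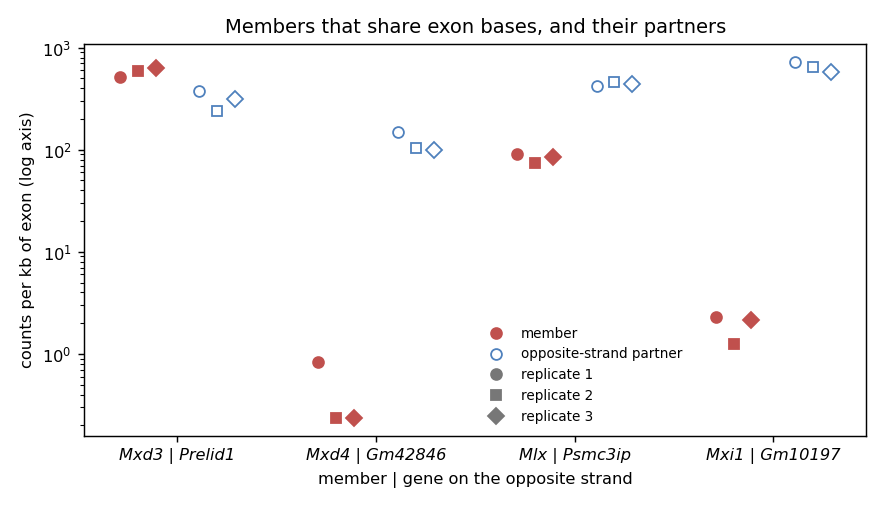
Counts per kb of exon on a log axis for the 4 members with shared exon bases (filled red) and their opposite-strand partners (open blue), with circle, square and diamond for replicates 1, 2 and 3. Mxd3 lies above Prelid1, and Mxd4, Mlx and Mxi1 lie below their partners in every library.

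How far the libraries differed was tested gene by gene, setting the counts against Poisson error at TMM-scaled library sizes with a chi-square statistic and adjustment over all 10216 genes that passed a filter on low counts. Of the 10 members 6 passed the filter, and Mycn, Mxd1, Mxd4 and Mxi1 did not. Under this scaling 3 of the 6 differed between libraries, with 35.6% of all genes tested called. Mxd3 had 1063, 1229 and 1312 counts where the TMM-scaled library sizes gave 1427, 907 and 1270 (edgeR TMM, adjusted p = 1.89e-44). Max had 248, 112 and 160 counts where the scaled sizes gave 206, 131 and 183 (edgeR TMM, adjusted p = 0.00348). Mga had 296, 134 and 227 against 260, 165 and 232 (adjusted p = 0.0148). Myc (adjusted p = 0.0726), Mlx (0.129) and Mnt (0.823) did not pass.

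The deviations split by the position of opposite-strand genes. In replicate 2, Myc, Max, Mga and Mnt, which share no exon bases with an opposite-strand gene, were below the count given by TMM-scaled library size. Mxd3 and Mlx, which do share them, were above it. The same split ran through all genes tested. Relative to total counts, the median log2 deviation of isolated genes, those with no opposite-strand gene within 5000 bases, was 0.28, -0.37 and 0.1 in replicates 1, 2 and 3, that of near genes, such as Myc and Mnt, was 0.24, -0.32 and 0.09, and that of genes with shared exon bases was 0, 0.03 and 0. Isolated genes held 14.1%, 9.52% and 12.9% of the counts. By TPM, 5 of the 6 detected members were lowest in replicate 2, as were 77.9% of the detected protein-coding genes. The 10 T cell markers also summed to 1024, 552 and 857 TPM, lowest in replicate 2; their part in these differences was not tested.

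With TMM factors taken from isolated genes only, the calls on Max and Mga were lost and Mlx was called. Under TMM over all genes tested, 53.0% of tested genes with shared exon bases, such as Mxd3 and Mlx, were called. The shares were 21.1% for near genes and 23.7% for isolated genes, such as Max and Mga. With isolated-gene factors these shares were 58.5%, 17.9% and 13.4%. The adjusted p became 0.0877 for Max, 0.485 for Mga, 0.701 for Myc, 0.997 for Mnt, 0.000829 for Mlx and 2.98e-79 for Mxd3, with 34.7% of all genes tested called. The 344 counts of Myc in replicate 2 then stood beside 345 given by library size under isolated-gene scaling. The call on Max also ended without replicate 1 (adjusted p = 0.91), and that on Mga without replicate 1 (0.188) or replicate 2 (0.354). Over 12 alternatives the adjusted p ranged from 1.01e-07 to 0.91 for Max, from 2.88e-08 to 0.74 for Mga, from 0.000199 to 0.995 for Mlx and from 2.87e-11 to 0.984 for Myc. Mxd3 was called under every one of them.

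**Figure D4:**
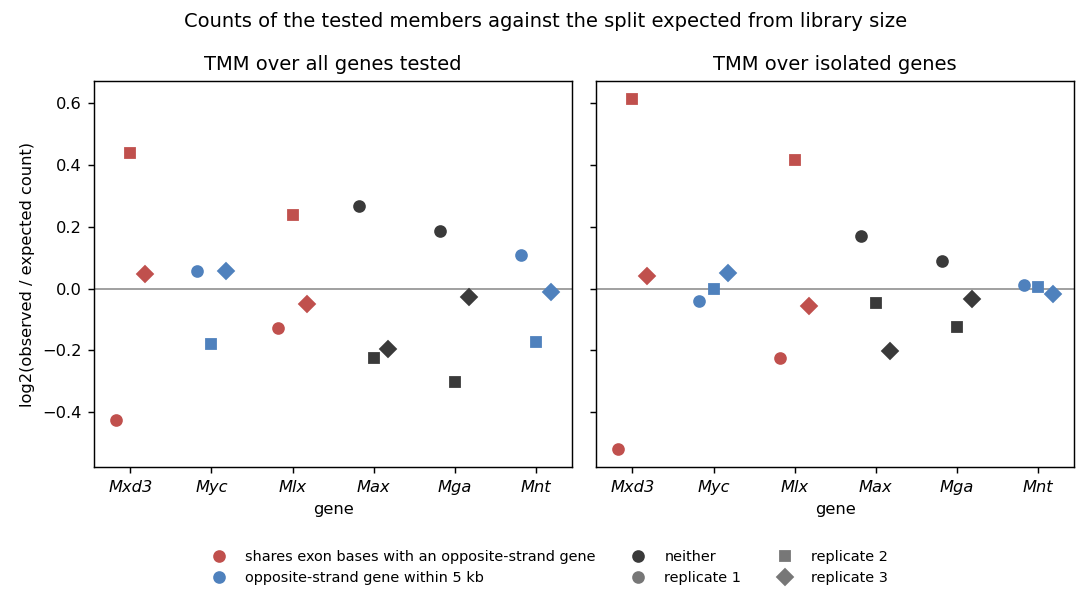
Log2 of the observed count over the count given by library size for the 6 members tested, with library sizes scaled by TMM over all genes tested (left) or over isolated genes (right); symbols are replicates and colours the position of opposite-strand genes. On the left Myc, Max, Mga and Mnt lie below 0 in replicate 2 and Mxd3 and Mlx above it; on the right Myc and Mnt lie within 0.05 of 0 in every library.

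Genes that work with the network were detected almost throughout. Of 75 genes in 6 lists, 70 were detected, against 41.2% of protein-coding genes. Of the 72 with any count 71 were lowest in replicate 2 by TPM, as were 77.9% of the detected protein-coding genes. Under TMM scaling 24 of 71 tested genes differed between libraries, a share near the 35.6% of all genes tested, and 21 did under isolated-gene scaling, where 34.7% of all genes tested were called. Without replicate 2, 5 of 72 tested list genes differed under TMM scaling, where 9.04% of all genes tested were called. Without replicate 1, 15 of 71 did, where 24.4% were called.

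The remaining MYC and MLX family genes were mostly uncounted. Mycl, Mycs and Mlxipl (a glucose-responsive MLX partner, also known as ChREBP) had 0 counts in every library. Bmyc stood at 12.8 ± 4.56 TPM (opposite A230005M16Rik) and Mlxip, the MLX partner also known as MondoA, at 4.85 ± 0.366 TPM (opposite Gm15747), each with n = 3. Neither was called as different between libraries under TMM scaling, and Mlxip was under isolated-gene scaling (edgeR TMM, adjusted p = 0.0167). Those scalings called 35.6% and 34.7% of all genes tested.

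The 14 MYC coactivator genes all passed 1 TPM in every library (median 17.6 ± 3.1 TPM). The highest were Ruvbl2 and Ruvbl1, which encode ATPases of chromatin remodelling complexes, at 105 ± 16.8 TPM (opposite Gys1 and Lhb) and 53.5 ± 9.47 TPM, and Kat5, an acetyltransferase gene, at 59.7 ± 8.57 TPM (opposite Rnaseh2c). Under TMM scaling 3 of the 14 differed between libraries, Trrap and Wdr5 among them, with 35.6% of all genes tested called. Without replicate 1 and without replicate 2, 1 of the 14 differed, with 24.4% and 9.04% called. Under isolated-gene scaling 5 did, with 34.7% of all genes tested called. The call on Trrap was lost (edgeR TMM, adjusted p = 0.255), and Ruvbl2, Actl6a and Ccnt1 were called.

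The SIN3 and histone deacetylase corepressor genes, through which the MXD proteins repress, were detected for 14 of 14 (median 20.2 ± 4.85 TPM). Rbbp7 stood at 109 ± 28.9 TPM (opposite Txlng), and the deacetylase genes Hdac1 and Hdac2 at 51.4 ± 10.4 and 38.9 ± 9.34 TPM. Of the 14, Rbbp4, Rbbp7 and Arid4b differed between libraries under TMM scaling, with 35.6% of all genes tested called. These calls ended without replicate 2, where 9.04% of all genes tested were called. Under isolated-gene scaling the calls on Rbbp4 and Rbbp7 were lost (edgeR TMM, adjusted p = 0.0831 and 0.747), and Hdac1 and Arid4a were called. That scaling called 34.7% of all genes tested. The scaffold gene Sin3a stood at 20.1 ± 5.73 TPM (opposite 2700012I20Rik and Man2c1os), above the repressor genes of the network other than Mxd3.

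Of the 10 genes of the MGA polycomb complex 9 were detected (median 9.46 ± 2.51 TPM), close to the level of Mga itself. Tfdp1, which encodes an E2F partner, stood at 77.8 ± 20.8 TPM, Rnf2, a ubiquitin ligase gene, at 25.9 ± 1.88 TPM (opposite Trmt1l) and E2f6 at 17.1 ± 8.26 TPM. Of the 10, Pcgf6, E2f6 and Tfdp1 differed between libraries under TMM scaling, with 35.6% of all genes tested called. These calls ended without replicate 1 and without replicate 2, where 24.4% and 9.04% of all genes tested were called. Under isolated-gene scaling all 3 calls were lost (edgeR TMM, adjusted p = 0.0754, 0.0602 and 0.713), and L3mbtl2 and Rnf2 were called. That scaling called 34.7% of all genes tested.

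All 12 genes that govern MYC protein stability were detected (median 12 ± 2.6 TPM), with the mitotic kinase genes Plk1 at 33.7 ± 11.2 TPM (opposite Gm44985) and Aurka at 23.2 ± 2.79 TPM. Huwe1 and Gsk3b differed between libraries under TMM scaling, with 35.6% of all genes tested called. These calls ended without replicate 2, where 9.04% of all genes tested were called. Without replicate 1, where 24.4% of all genes tested were called, 1 gene of the list was called. Under isolated-gene scaling the call on Gsk3b was lost (edgeR TMM, adjusted p = 0.301), and Ppp2r5a and Aurka were called. That scaling called 34.7% of all genes tested.

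Genes known as MYC targets had the highest levels, with 19 of 20 detected and a median of 70.8 ± 22.3 TPM. Ncl, which encodes nucleolin, stood at 644 ± 121 TPM, Ldha (lactate dehydrogenase A) at 405 ± 126 and Cdk4, a cell cycle kinase gene, at 371 ± 2.22 TPM (opposite Tspan31). In this list 13 of 19 tested genes differed between libraries under TMM scaling, with 35.6% of all genes tested called, and 7 under isolated-gene scaling, with 34.7%. A test against Poisson error calls a given relative difference more readily at high counts. The median over detected protein-coding genes was 9.77 ± 2.29 TPM, below that of this list, and the part of level in these calls was not tested. Without replicate 2, 4 target genes differed under TMM scaling and 3 under isolated-gene scaling, with 9.04% and 12.8% of all genes tested called. Without replicate 1 they numbered 10 and 4, with 24.4% and 26.1% called. CACGTG was found in the promoter windows of 4 of the 14 target genes with an entry (28.6%), Cdk4, Eif4e, Ldha and Nme1. That compares with 8.09% of all genes with a window and 12.1% of detected protein-coding genes. CACGCG was found in 6 of the 14 (42.9%), against 10.5% and 21.1%. Over the 61 genes of all 6 lists with a window, the shares were 13.1% for CACGTG and 32.8% for CACGCG. All 20 target genes were lowest in replicate 2 by TPM, as Myc was, and as 77.9% of the detected protein-coding genes were. By class this share was 90.1% for isolated genes, 84.4% for near genes and 61.6% for genes with shared exon bases, which 7 of the 20 are.

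**Figure D5:**
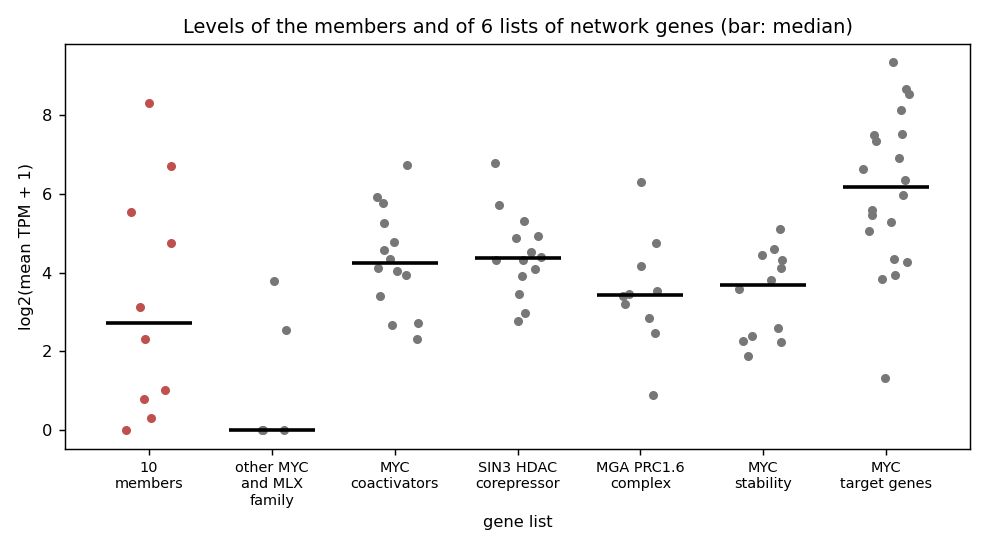
Level of each gene as log2(mean TPM + 1) over the 3 libraries for the 10 members (red) and the 6 lists of network genes (grey), with bars at the median. The MYC target genes are the highest list and the other MYC and MLX family genes the lowest.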

How the data were processed

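Raw counts of read pairs per gene were made by the authors with featureCounts 1.4.6-p4, requiring both ends aligned, with strand option 1 and the exons of GENCODE M13, per the file headers, and on mm10, per the labels. No aligner version was found in the sources used. Exon length is the other deposited column used.

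The members and lists were chosen with earlier results of these data known. Symbols came from GENCODE M21 (50376 of 50600 identifiers matched). TPM, FPKM and CPM were computed here from the counts. Genes were classed by exon coordinates as overlapped, spanned, near (opposite-strand gene within 5000 bases) or isolated. Differences between libraries were tested for each gene by chi-square on Poisson expectations (2 degrees of freedom) at TMM-scaled library sizes. The test covered genes that passed filterByExpr, Benjamini-Hochberg adjusted at 0.05. It was tried on simulated counts drawn with Poisson error at the same scaled library sizes. Such a simulation cannot show how the test behaves where all genes spread beyond Poisson error. A quasi-likelihood test needs a contrast and there is 1 group. Alternatives were DESeq2 size factors, total counts, TMM from isolated or overlapped genes, no filter, a threshold of 0.01, and each library left out. The nested-gene count, the comparison without Mxd3 and isolated-gene scaling with a library left out were added after the values were seen. Named list genes are the 3 with the highest mean TPM, and every gene at 0 in all libraries, except genes that are not reported here; genes that differed, Sin3a, Tcf7 values and the marker genes were named after their values were seen. Total counts were 3553547, 2945353 and 3369468 in replicates 1, 2 and 3. Scaling used edgeR 4.0.16 (TMM) and DESeq2 1.42.0 under R 4.3.3; tables were made in Python 3.11.15.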

Additional observations from a re-analysis of the deposited data

How the results depend on the processing

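The number of detected members, the neighbours of 1 sign and the total of detected list genes stayed within 1.5 times of the reported counts under each alternative run for them. At 5 TPM in every library, detected MYC stability genes numbered 7 in place of 12, and other MYC and MLX family genes 1 in place of 2. The log2 ratio of Myc to the summed MXD and MNT genes reversed to 4.16 when repressor genes with shared exon bases were left out, a set that drops Mxd3. The log2 ratio of Myc to Max was 1.58 by CPM. The member median of 5.85 TPM was 3.24 as FPKM, 50.2 as a mean, 26.0 over members with 1 TPM in at least 1 library and 4.00 without Mxd3. By TPM in place of counts, the log2 ratio was 0.91 for Mxd3 over Prelid1, -5.70 for Mxd4 over Gm42846 and -7.45 for Mxi1 over Gm10197, since length enters. By CPM the order ran Mxd3, Myc, Mga, Max, Mlx, and it was the TPM order without any 1 replicate. Members that differed between libraries numbered 1 to 4 with a replicate left out, where 9.04% to 37.0% of all genes tested were called. Without replicate 1 there was 1, with 24.4% of all genes called. Isolated-gene scaling without replicate 2 also gave 1, with 12.8% called. List genes that differed numbered 24, but 44 by total counts and 48 by TMM from overlapped genes. Those 2 settings called 51.7% and 53.2% of all genes tested. Without replicates 1, 2 and 3 list genes that differed numbered 15, 5 and 28, where 24.4%, 9.04% and 37.0% of all genes were called. Isolated-gene scaling gave 12 without replicate 1 and 6 without replicate 2, where 26.1% and 12.8% of all genes were called. The cause was not tested. Counts of 2 to 13 limit what can be said of Mxi1, Mxd1 and Mxd4. No paired analysis was possible because there is 1 group.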
